A study of Mus musculus with 8 samples.

Results

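Potassium channel genes were described here across 4 cell groups of the injured mouse liver. They were taken as every gene symbol that begins with Kcn, continues with a family letter or letters and then has a digit, and 97 of the 21968 named genes met this rule. Of the 97, 93 code for protein and 4 are non-coding or antisense transcripts. The family was selected on the measured levels of Kcna2 and Kcng2, which are high in the b-gal+ libraries, so the levels of these genes in b-gal+ cells are given as a description, with no test, and the symbol rule alone brought in all other members.

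All mice carried the Lgr5-LacZ transgene on a mixed C57BL/6 and CBA background and received CCl4, a hepatotoxin, in rapeseed oil at 1 µl per g body weight into the peritoneum; livers were taken after 6 days, and no uninjured liver was analysed here. Mice were 10 to 12 weeks old per the sample labels and 7 to 12 weeks per the series text. The groups were F4/80high cells with β-galactosidase activity (b-gal+), F4/80high cells without it (b-gal-), both read with a fluorogenic substrate, cells sorted with an antibody to EpCAM (EpCAM-positive), and hepatocytes, pelleted at low speed. The series title attributes the activity to the endogenous enzyme of Kupffer cells, so b-gal+ does not stand for the transgene. Each group had 2 libraries, each of cells pooled from 2 mice, with 16948568 to 24549242 recovered reads.

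The defining markers of each label were present, and those of other cell types were too. The 7 Kupffer cell markers summed to 30070 and 26800 counts per 1000000 reads (CPM, scaled between libraries with TMM factors) in b-gal+ replicates 1 and 2, against 2787 and 1943 for b-gal-, 918 and 196 for EpCAM-positive cells and 298 and 210 for hepatocytes. Sinusoidal endothelial markers summed to 15000 and 17610 CPM in b-gal- cells, 6293 and 5330 for EpCAM-positive cells, 2345 and 1812 for b-gal+ cells and 318 and 829 for hepatocytes. Cholangiocyte markers summed to 2039 and 6405 CPM in EpCAM-positive cells, 658 and 55.4 for b-gal+, 1267 and 83.5 for b-gal- and 135 and 18.4 for hepatocytes. In the F4/80high libraries nearly all of that sum was Spp1, which macrophages also express (655 and 53.5 CPM for b-gal+, 1263 and 78.6 for b-gal-), and Epcam, Krt19, Krt7, Sox9 and Tspan8 each stood at 1.47 CPM or less there. EpCAM-positive cells also held B or plasma cell markers at 4097 and 1605 CPM and hepatocyte markers at 707 and 4970 CPM. In hepatocytes the hepatocyte markers summed to 176600 and 258500 CPM. In such bulk libraries, fewer cells of a type and less RNA per cell cannot be told apart.

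Potassium channels let potassium leave or enter a cell along its gradient and so set the resting membrane potential, cell volume and the driving force for calcium entry and for ion secretion. Voltage-gated (Kv) channels are built from pore subunits, which silent modifier subunits may join. Calcium-activated channels open with intracellular calcium, inward rectifiers pass current best near the resting potential, and two-pore-domain channels give a background leak. Auxiliary subunits change gating and surface level without forming a pore. In macrophages potassium efflux is known as a trigger of the NLRP3 inflammasome, and in bile duct cells and hepatocytes potassium channels support secretion and volume control.

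All pore-forming classes share a selectivity filter, the short stretch of the pore that lets potassium through and holds sodium back. Its conserved codons (threonine, then any codon with T in the middle, glycine, a codon that begins with T, as those of tyrosine and phenylalanine do, and glycine) were searched for in frame on the coding strand of each gene's longest coding sequence (GENCODE M21, GRCm38). It was found in 14 of 15 inward rectifiers, 23 of 30 Kv pore subunits, 10 of 10 silent modifiers, 5 of 8 calcium- or sodium-activated pore subunits, 12 of 14 two-pore-domain channels (11 of these with 2 matches) and 0 of 16 auxiliary subunits. Of all 21591 coding genes, 0.866% held it. The stretches below belong to channels described in later paragraphs and show the filter in genes with unlike levels. All were found by this search, and the matched bases are in capitals, 5′ to 3′.
Kcnj16, chr11:111024889-111024933, plus strand: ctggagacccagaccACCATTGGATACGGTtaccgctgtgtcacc
Kcnj9, chr1:172326169-172326213, minus strand: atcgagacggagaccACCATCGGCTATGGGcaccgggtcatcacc
Kcna2, chr3:107105209-107105253, plus strand: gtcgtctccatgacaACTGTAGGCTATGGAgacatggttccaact
Kcnk13, second filter, chr12:100061361-100061405, plus strand: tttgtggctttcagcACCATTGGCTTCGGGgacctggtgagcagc
Kcnk6, coding bases 301 to 345, across an exon junction: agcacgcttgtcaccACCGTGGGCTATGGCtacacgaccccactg
Kcnq1, coding bases 916 to 960, across an exon junction: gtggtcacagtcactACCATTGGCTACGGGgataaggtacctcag
Kcnn4, chr7:24379183-24379227, plus strand: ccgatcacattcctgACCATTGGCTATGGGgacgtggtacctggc
Kcnma1, chr14:23528398-23528442, minus strand: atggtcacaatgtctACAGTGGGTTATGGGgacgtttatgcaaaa
Kcnk5, first filter, coding bases 277 to 321, across an exon junction: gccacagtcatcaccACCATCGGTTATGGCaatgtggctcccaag

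The bases fixed by the search are included in all counts that follow. The 15 filter bases of Kcnj16 matched those of Kcnj9 at 11 positions and those of Kcnq1 at 13, while Kcnq1 and Kcnn4 matched at 14. Over all 45 bases shown, Kcnj16 and Kcnj9 matched at 31, as many as Kcnq1 and Kcnn4, which are of different classes, and Kcnj16 and Kcnk5 matched at 19.

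Of the 97 members, 15 had 0 reads in all 8 libraries, 18 had reads but never more than 3, and 64 exceeded 3 reads in at least 1 library. The floor of 3 reads corresponds to 0.122 to 0.177 CPM before TMM scaling, so a member at 0 reads may lie anywhere below that. Members at 0 throughout include Kcne1 and Kcne2, auxiliary subunits of heart and stomach, and Kcnj3 and Kcnj6, which form G protein-gated channels in heart and brain. The filter on low counts passed 43 members, and 54 could not be tested. A mean of at least 1 CPM in any group was reached by 35 members, and of at least 10 CPM by 24.

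Summed over the family, levels were 1028 and 1086 CPM in b-gal+ cells, 432 and 435 for b-gal-, 364 and 442 for EpCAM-positive cells and 196 and 229 for hepatocytes. The b-gal+ libraries stood above all others, and the hepatocyte libraries below all others. Kcnj10, Kcna2 and Kcnk6 made up 65.7% and 67.1% of the b-gal+ sums. Among the 35 members of at least 1 CPM, 8 had their highest mean in b-gal+ cells, 6 of them with both libraries above the other 6, against 15% of all 13790 genes of that level. For b-gal- cells these numbers were 8 and 5 (13.4% of all genes), for EpCAM-positive cells 12 and 9 (7.8%) and for hepatocytes 7 and 5 (30.6%). The b-gal+ sums include Kcna2 (228 and 238 CPM) and Kcng2 (13.9 and 14.4). Nothing is read from these sums, their place above the others or the b-gal+ number, since high b-gal+ levels chose the family.

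**Figure D1:**
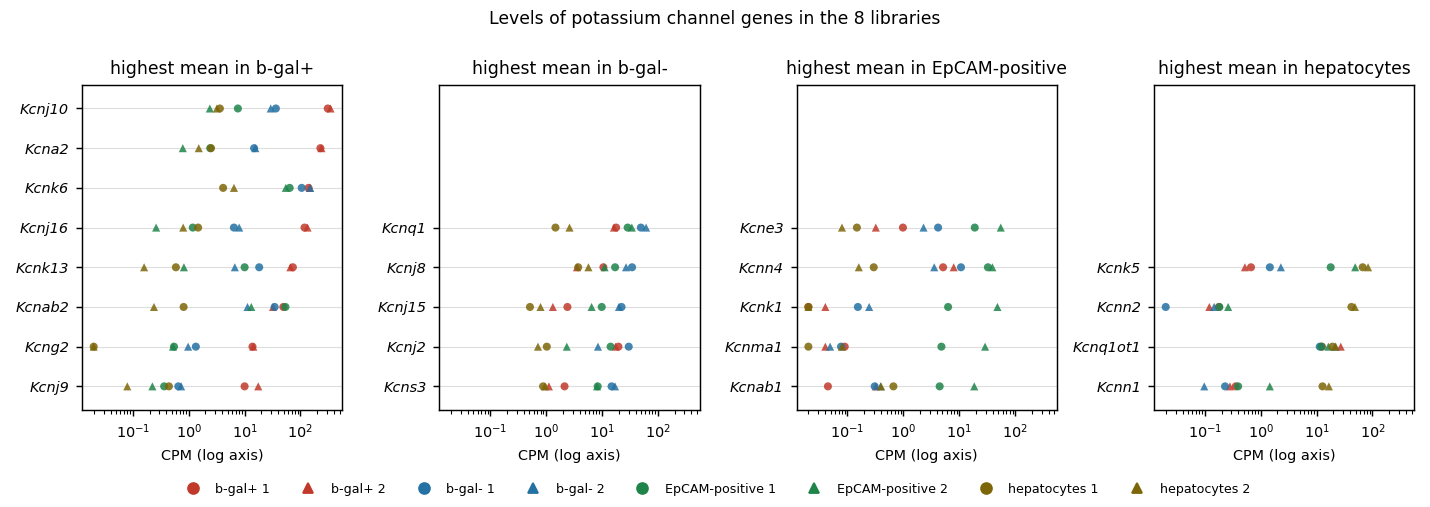
Each point is the level of 1 potassium channel gene in 1 library, in TMM-scaled CPM on a log axis, for 22 of the 24 members with a mean of at least 10 CPM in any group, split by the group with the highest mean. Circles are replicate 1, triangles replicate 2, and values under 0.02 CPM, zeros included, are drawn at 0.02. The b-gal+ points of Kcnj10, Kcna2 and Kcnj16 lie near or above 100 CPM, while both EpCAM-positive points of Kcnk1 and Kcnma1 lie far apart.

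The classes made up the family differently in each group, in levels per length (CPM per 1000 exon bases). Inward rectifiers took 49.4% and 52.4% of the summed level per length in b-gal+ cells, 31.7% and 24.4% for b-gal- cells, 15.1% and 5.46% for EpCAM-positive cells and 8.22% and 7.48% for hepatocytes. Two-pore-domain channels took 54.0% and 56.6% for hepatocytes and 28.1% to 41.1% in the other libraries. Auxiliary subunits took 26.9% and 30.7% for EpCAM-positive cells and 2.08% to 10.4% elsewhere. Calcium- and sodium-activated pore subunits took 24.7% and 22.0% for hepatocytes, 8.58% and 8.94% for EpCAM-positive cells and 0.754% to 2.87% in the F4/80high groups. The shares of b-gal+ cells and hepatocytes differed little between replicates, whereas those of inward rectifiers in EpCAM-positive cells differed by more than 2-fold.

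**Figure D2:**
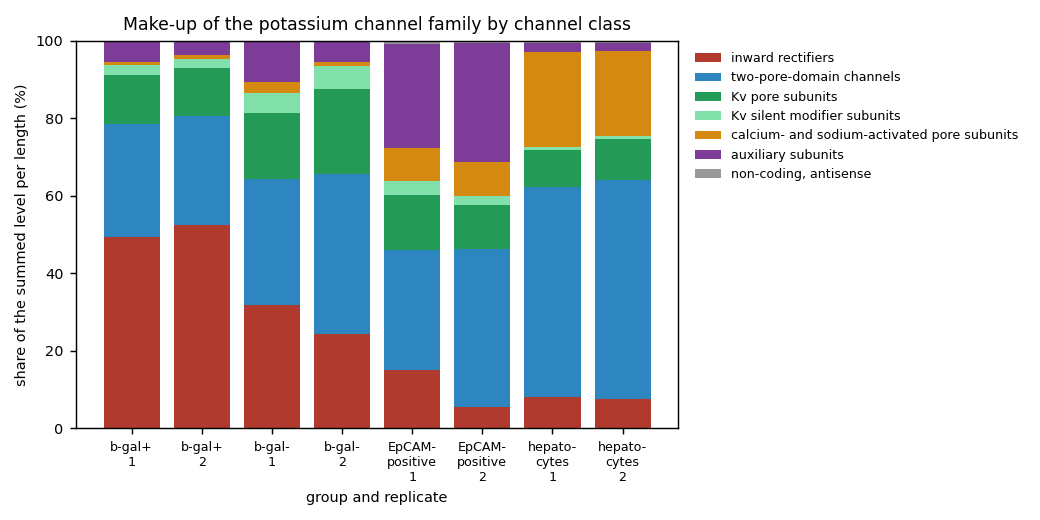
Stacked bars show, for each of the 8 libraries, the share in percent of the family's summed level per length that each channel class takes. Inward rectifiers take 49.4% and 52.4% in the b-gal+ libraries, and two-pore-domain channels take 54.0% and 56.6% in the hepatocyte libraries.

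Kcna2 (chromosome 3, 107101146 to 107115005, GRCm38, plus strand), a voltage-gated pore subunit best known from axons, stood at 228 and 238 CPM in b-gal+ replicates 1 and 2. It stood at 14.8 and 15.6 CPM in b-gal-, 2.43 and 0.785 for EpCAM-positive cells and 2.51 and 1.52 for hepatocytes. Both b-gal+ libraries were above all others, and the b-gal- libraries stood between them and the remaining groups. The ratio of means was 15.3 to b-gal- cells, 145 to EpCAM-positive cells and 115 to hepatocytes. Outside the b-gal+ group, Kcna2 was higher in b-gal- cells than in hepatocytes by a log2 difference of 2.67 ± 0.41 (SE, n = 2 per group, limma adjusted p = 0.00115). Kupffer cell markers were on the same side, at 2787 and 1943 against 298 and 210 CPM. Their part in the difference was not tested, so it is not read as independent of how Kcna2 was chosen. Kcna2 lies 63075 bases after Kcna3 and 68050 bases before Kcna10. Kcna3, which sets the potential of T cells and is also known from macrophages, ran the other way: it stood at 0.805 and 0.644 CPM in b-gal+ cells, 3.57 and 2.01 for b-gal-, 5.32 and 2.66 for EpCAM-positive cells and 0 in both hepatocyte libraries.

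Kcng2 (chromosome 18, 80294546 to 80364254, minus strand), a silent modifier that forms no channel alone, stood at 13.9 and 14.4 CPM in b-gal+ cells, from 310 and 357 reads. In b-gal- cells it stood at 1.34 and 0.978 CPM, in EpCAM-positive cells at 0.547 and 0.524, and hepatocytes had 0 reads, where the floor of 3 reads is 0.122 and 0.126 CPM before TMM scaling. The b-gal+ mean was 12.2 times the b-gal- mean and at least 61.2-fold higher than hepatocytes, with 3 reads taken as the floor in each hepatocyte library. Its exons share 9.1% of their bases with another annotated gene, D330025C20Rik, so part of its reads may be ambiguous. Kcns3, the other silent modifier over 1 CPM, was highest in b-gal- cells: 2.15 and 1.13 CPM in b-gal+, 14.9 and 17.2 for b-gal-, 8.42 and 8.19 for EpCAM-positive cells and 0.886 and 0.958 for hepatocytes.

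Setting b-gal+ beside b-gal- cells compares the F4/80high gate with and without β-galactosidase activity. The groups also differed in the F4/80 gene itself: Adgre1 stood at 1731 and 1361 CPM in b-gal+ cells, 311 and 134 for b-gal-, 138 and 14.2 for EpCAM-positive cells and 20.1 and 13.9 for hepatocytes. Together with the endothelial marker sums of 15000 and 17610 CPM in b-gal- cells, this means that enzyme activity and cell make-up cannot be told apart in this comparison. Without Kcna2 and Kcng2, 41 members were tested, of which 3 were higher in b-gal+ cells (10.4% of all tested genes were) and 7 lower (13% of all), or 24.4% of members against 23.3% of all 14404 genes in either direction. A member was called at a limma p under 0.05 after Benjamini-Hochberg adjustment across every tested gene. The members' median log2 difference was -0.20, against -0.02 over all genes. The 3 higher members were all inward rectifiers: Kcnj10, Kcnj16 and Kcnj9. With Kcnj15, Kcnj8, Kcnq1, Kcns3, Kcna3 and Kcnh1 among the lower, inward rectifiers changed in both directions. Kcnh1 was under 1 CPM in every group and passed the low-count filter only through b-gal- cells. Nothing is therefore read from its call or from the number of lower members.

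**Figure D3:**
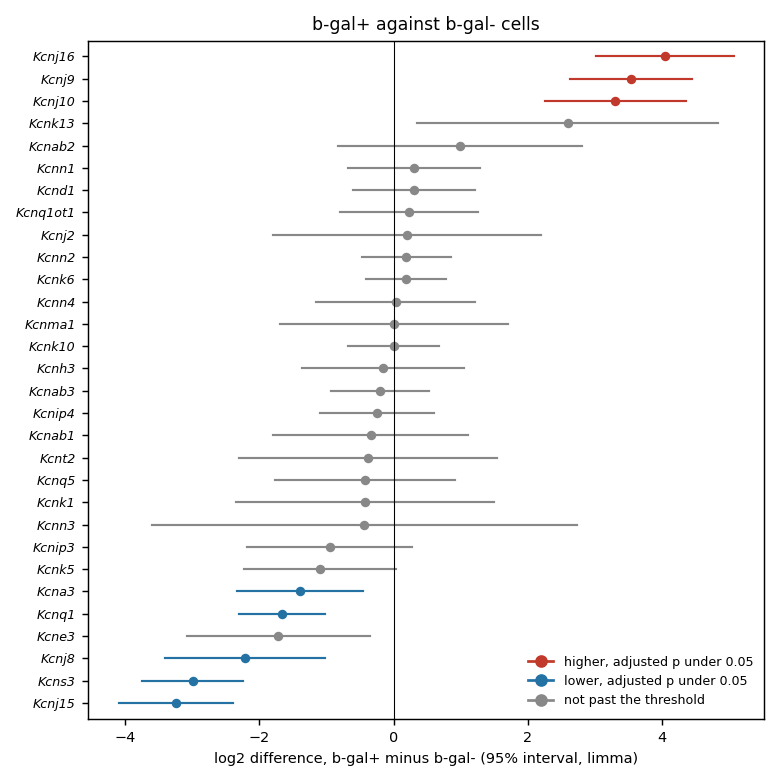
Points are log2 differences between b-gal+ and b-gal- cells for 30 members with a mean of at least 1 CPM in any group, Kcna2 and Kcng2 left out, and lines are 95% intervals from limma. Kcnj16, Kcnj9 and Kcnj10 are higher with intervals far from 0, while the interval of Kcnn3 runs from -3.60 to 2.73.

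Kcnj10 (chromosome 1, 172341210 to 172374085, plus strand) is the inward rectifier with which glia clear extracellular potassium. It stood at 308 and 346 CPM in b-gal+ cells, 36.3 and 29.4 for b-gal-, 7.60 and 2.39 for EpCAM-positive cells and 3.62 and 3.19 for hepatocytes. The b-gal+ libraries were separate from all others, and per length Kcnj10 was the most abundant member there, with 28.7% and 31.2% of the family. It was 9.85-fold higher in b-gal+ than in b-gal- cells (log2 difference 3.30 ± 0.44, adjusted p = 0.00302; folds of tested differences are on the log2(CPM + 0.5) scale). Against hepatocytes it was 83.8-fold and against EpCAM-positive cells 67.5-fold higher (adjusted p = 3.51e-05 and 0.000691).

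Kcnj16 (chromosome 11, 110968033 to 111027968, plus strand) encodes a subunit that is silent by itself in most cells and joins the Kcnj10 product in a channel that senses acidity. It stood at 118 and 134 CPM in b-gal+ cells, 6.45 and 8.02 for b-gal-, 1.19 and 0.262 for EpCAM-positive cells and 1.48 and 0.798 for hepatocytes. As for Kcnj10, the order was b-gal+, b-gal-, then both other groups, whose libraries overlapped. It was 16.4-fold higher in b-gal+ than in b-gal- cells (log2 difference 4.04 ± 0.43, adjusted p = 0.00155).

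Kcnj9 (chromosome 1, 172320501 to 172329318, minus strand) encodes a G protein-gated subunit that in neurons needs the products of Kcnj3 or Kcnj6, both at 0 reads in all 8 libraries. It stood at 10.0 and 17.6 CPM in b-gal+ cells, 0.653 and 0.734 for b-gal-, 0.365 and 0.224 for EpCAM-positive cells and 0.443 and 0.0798 for hepatocytes. It was 11.6-fold higher in b-gal+ than in b-gal- cells (log2 difference 3.53 ± 0.38, adjusted p = 0.00161). The calls of Kcnj10, Kcnj16 and Kcnj9 held under all 18 alternatives of processing, test and left-out library. The Kupffer cell marker sum moved in the same direction as these genes, at 30070 and 26800 against 2787 and 1943 CPM, and its part in the differences was not tested.

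Kcnj9 and Kcnj10 lie head to head on chromosome 1 with 11891 bases between them, and both were highest in b-gal+ cells. Their 250 bases upstream of the start (RefSeq, GRCm38.p6, no overlap with a GENCODE exon) are shown because these neighbours moved together, with matches in capitals to the GC box GGGCGG, to the CCAAT box, to the TATA box TATAAA, to the E-box CACGTG and to GAGGAAGT (a PU.1-type ETS site, PU.1 being a macrophage factor), each searched on both strands.
Kcnj10, chr1:172340960-172341209, plus strand: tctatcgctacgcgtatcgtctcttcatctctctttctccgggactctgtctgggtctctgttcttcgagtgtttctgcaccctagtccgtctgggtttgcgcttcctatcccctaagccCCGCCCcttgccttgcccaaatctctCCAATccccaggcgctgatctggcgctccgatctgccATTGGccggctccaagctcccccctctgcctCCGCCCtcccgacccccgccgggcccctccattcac
Kcnj9, chr1:172329323-172329572, minus strand: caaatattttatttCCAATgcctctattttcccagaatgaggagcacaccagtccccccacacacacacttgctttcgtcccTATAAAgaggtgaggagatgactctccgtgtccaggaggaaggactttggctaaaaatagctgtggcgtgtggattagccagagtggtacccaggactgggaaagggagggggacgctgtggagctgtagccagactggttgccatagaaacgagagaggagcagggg
The Kcnj10 window had a GC content of 62% with 17 CpG, 2 GC boxes and 2 CCAAT matches, and the Kcnj9 window 52% with 5 CpG, 1 CCAAT and 1 TATA box match. Over all 32851 windows, 32.7% hold a GC box, 33.8% a CCAAT box, 12.4% a TATA box, 6.02% the E-box and 2.44% GAGGAAGT, and the median window has a GC content of 52.4% with 6 CpG. The windows were thus not alike in base composition, and neither held GAGGAAGT or the E-box in these letters.

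Kcnj16 has a neighbour too: Kcnj2 (chromosome 11, 111066164 to 111076821, plus strand), a strong inward rectifier that holds the resting potential, begins 38195 bases after it. Kcnj2 stood at 19.8 and 17.6 CPM in b-gal+ cells, 30.2 and 8.51 for b-gal-, 14.3 and 2.36 for EpCAM-positive cells and 1.03 and 0.718 for hepatocytes. Its b-gal- libraries spanned the b-gal+ values, and the difference between them was 0.20 (95% interval -1.79 to 2.20, adjusted p = 0.901). Which of the F4/80high groups is higher in Kcnj2 was thus not resolved.

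**Figure D4:**
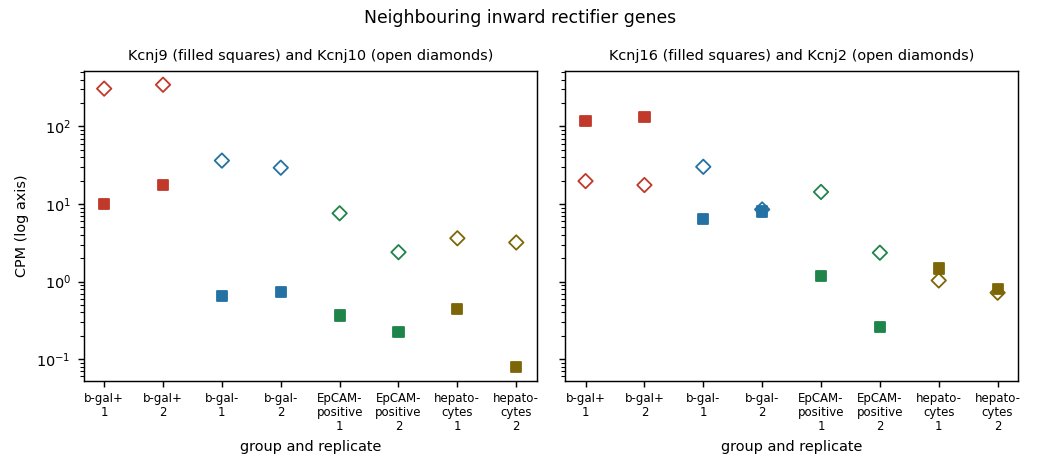
Levels in TMM-scaled CPM on a log axis are shown for each of the 8 libraries, on the left for Kcnj9 and Kcnj10 and on the right for Kcnj16 and Kcnj2. Kcnj9 and Kcnj10 are both highest in the b-gal+ libraries, whereas Kcnj2 at 19.8 and 17.6 CPM there lies within the b-gal- values of 30.2 and 8.51.

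Kcnj8 and Kcnj15 were lower in b-gal+ cells. Kcnj8 (chromosome 6, 142564837 to 142571614, minus strand), the pore of the vascular ATP-sensitive channel, stood at 34.7 and 27.1 CPM in b-gal- cells, 10.6 and 3.58 for b-gal+, 17.2 and 11.2 for EpCAM-positive cells and 3.77 and 5.75 for hepatocytes. It fell by 2.21 ± 0.50 for b-gal+ against b-gal- cells (adjusted p = 0.0208). Its partner Abcc9, the sulfonylurea receptor of that channel, stood at 143 CPM in both b-gal- libraries, against 66.4 and 45.5 for b-gal+, 64.1 and 54.0 for EpCAM-positive cells and 14.9 and 29.4 for hepatocytes, and fell by 1.37 (adjusted p = 0.0247). Kcnj15 (chromosome 16, 95257558 to 95300260, plus strand), a weak rectifier of epithelia and vessels, stood at 22.5 and 20.2 CPM in b-gal- cells and 2.42 and 1.33 for b-gal+, and fell by 3.24 ± 0.36 (adjusted p = 0.00167). Sinusoidal endothelial markers were on the same side, at 15000 and 17610 against 2345 and 1812 CPM. Stellate cell, fibroblast or pericyte markers summed to 1036 and 745 CPM in b-gal- cells and 822.5 and 148 for b-gal+. The part of either list in these differences was not tested. Leaving out b-gal+ replicate 2 or either of the b-gal- libraries ended the call of Kcnj8 (adjusted p = 0.0913, 0.101 and 0.0895) and that of Abcc9 (0.163, 0.0928 and 0.124).

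Kcnq1 (chromosome 7, 143106362 to 143427042, plus strand), a voltage-gated subunit of heart and secretory epithelia, had the second highest mean level per length in b-gal- cells, although Kcnj8 stood above it in replicate 1 (13.7% against 12.2% of the family). It stood at 49.8 and 61.8 CPM there, 18 and 16.5 for b-gal+, 28.9 and 34.3 for EpCAM-positive cells and 1.48 and 2.63 for hepatocytes, with no overlap between any pair of groups. It fell by 1.66 ± 0.27 for b-gal+ against b-gal- cells (adjusted p = 0.00606), which did not pass with b-gal+ replicate 2 (0.0567) or b-gal- replicate 2 (0.0628) left out. Kcnq1ot1, an imprinted non-coding transcript that overlaps Kcnq1 on the opposite strand, did not follow it: it ranged from 11.4 to 27.1 CPM over all 8 libraries. Whether reads were counted by strand is not given in the sources used here, so reads in the overlap cannot be assigned. The overlap holds 2.96% of the Kcnq1 exon bases, but Kcnq1ot1 (143203458 to 143296549) lies wholly within the Kcnq1 locus. If strand was ignored, reads from Kcnq1 introns there would count for Kcnq1ot1. Kcns3 fell by 2.99 ± 0.32 (adjusted p = 0.0015), and Kcna3 fell by 1.39 (0.0456). Leaving out either b-gal+ replicate 2 or b-gal- replicate 2 gave 5 called members in place of 10. Kcna3 lost its call without any 1 of the 4 libraries compared or of the hepatocyte libraries (0.0862 to 0.222).

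Two-pore-domain channels were abundant in both F4/80high groups. Kcnk6 (chromosome 7, 29221926 to 29232515, minus strand), a leak channel tied to inflammasome activation in macrophages, stood at 140 and 146 CPM in b-gal+ cells, 105 and 149 for b-gal-, 64.2 and 54.7 for EpCAM-positive cells and 4.13 and 6.47 for hepatocytes. The F4/80high groups overlapped, with a difference of 0.19 (95% interval -0.40 to 0.78, adjusted p = 0.654), and Kcnk6 was 25.3-fold higher in b-gal+ cells than in hepatocytes (adjusted p = 1.44e-05). Kcnk13 (chromosome 12, 99964499 to 100062682, plus strand), the main leak channel of microglia, stood at 73.3 and 66.1 CPM in b-gal+ cells, 18.3 and 6.70 for b-gal-, 10.0 and 0.823 for EpCAM-positive cells and 0.591 and 0.160 for hepatocytes. Its b-gal+ libraries lay above all others, but the difference of 2.59 (95% interval 0.35 to 4.83) to b-gal- cells had adjusted p = 0.0975. With EpCAM-positive replicate 1 or 2 left out of the fit, it passed (0.0166 and 0.013). Kcnk13 was higher in b-gal+ cells than in hepatocytes by 6.37 ± 0.94 (adjusted p = 0.00106) and than in EpCAM-positive cells by 4.23 ± 0.94 (0.0153). The last of these was lost without b-gal+ replicate 1 (0.0746) or 2 (0.074). The auxiliary subunit Kcnab2, a β subunit of Kv channels such as Kcna2, had its highest mean in b-gal+ cells but overlapped: 49.5 and 32.3 CPM there, 34.6 and 11.3 for b-gal-, 53.9 and 13.2 for EpCAM-positive cells and 0.812 and 0.239 for hepatocytes.

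Against hepatocytes, 12 of 41 members were higher in b-gal+ cells and 6 lower, 43.9% in either direction, where 59.2% of all genes were called (29.5% higher, 29.6% lower). The members' median was 0.32, against 0.10 over all genes. Beside Kcnj10, Kcnk13, Kcnj16 and Kcnk6, the highest differences were Kcnab2 (5.36) and Kcnj9 (4.22), and among the lowest were Kcnn2, Kcnk5, Kcnn1, Kcnt2 and Kcnk10. Against EpCAM-positive cells, 5 of 41 were higher in b-gal+ cells and 14 lower, 46.3%, where 32.5% of all genes were called (14.7% higher, 17.9% lower); the median was -0.76 against -0.03. The 5 higher ones were Kcnj16, Kcnj10, Kcnk13, Kcnj9 and Kcnk6, and the lowest were Kcnk1, Kcne3, Kcnk5, Kcnma1, Kcnab1 and Kcnn4. Nothing is read from these shares, since b-gal+ levels chose the family. Without b-gal+ replicate 2, 11 members were called against EpCAM-positive cells in place of 19, and Kcnk6 did not pass (adjusted p = 0.0629). Kcnn4 did not pass there without b-gal+ replicate 1 (0.0759). The call of Kcnt2 against hepatocytes ended without either b-gal+ (0.11 and 0.104) or b-gal- library (0.051 and 0.0511), and without hepatocyte replicate 1 its difference moved from -2.52 to -1.48 (0.162).

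Between b-gal- cells and hepatocytes, 20 of 43 members were higher in b-gal- cells (46.5%, against 33.5% of all genes) and 5 lower (11.6%, against 29.7%), 58.1% in either direction against 63.2%. The share called was near that of all genes, and the members' median was 0.69 against 0.17. Among the highest differences were Kcnq1 (4.49), Kcnk6 (4.47), Kcnab2 (4.37), Kcnj15 (4.25) and Kcnk13 (3.78). Kcnk13 lost this call without b-gal- replicate 1 (adjusted p = 0.0654) or hepatocyte replicate 2 (0.0781). The lower members included Kcnn2 (-6.33), Kcnk5 (-5.00), Kcnn1 (-4.51) and Kcnk10 (-2.15). Kcnn2 and Kcnk10 passed the low-count filter only through hepatocytes, and Kcnh1, among the higher, only through b-gal- cells. The 20 higher members also include Kcna2 and Kcng2, which chose the family. Nothing is therefore read from these shares or the median. Without the low-count filter, 18 of 82 members were higher and 5 lower, and 9150 of 17832 genes were called.

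Hepatocytes had few channel genes at high levels. Kcnk5 (chromosome 14, 20140057 to 20181809, minus strand), a leak channel opened by alkaline pH and cell swelling, stood at 66.8 and 83.5 CPM in hepatocytes and took 49.8% and 51.9% of the family's level per length there. It stood at 17.9 and 49.1 CPM in EpCAM-positive cells, 1.46 and 2.30 for b-gal- and 0.671 and 0.523 for b-gal+. Kcnn2 (chromosome 18, 45268860 to 45686024, plus strand), a small-conductance calcium-activated channel, stood at 42.0 and 48.6 CPM in hepatocytes and at most 0.262 in any other library. Kcnn1 (chromosome 8, 70842049 to 70863258, minus strand), of the same class, stood at 12.8 and 16.6 CPM in hepatocytes and at most 1.46 elsewhere. All 3 were separate from every other library. The leak channel Kcnk10 had 20 and 25 reads among hepatocytes, 8 and 0 for EpCAM-positive cells and 0 in all 4 F4/80high libraries. The sodium-activated Kcnt2 was at 8.64 and 1.44 CPM in hepatocytes, so that these replicates straddled the EpCAM-positive values of 1.82 and 7.33.

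In EpCAM-positive cells, 21 of 43 members were higher than in hepatocytes (48.8%, against 33.5% of all genes) and 5 lower (11.6%, against 29.1%), 60.5% in either direction against 62.5%. The members' median was 1.48, against 0.15 over all genes. Kcnk1, Kcnma1 and Kcnh3 passed the low-count filter only through EpCAM-positive cells, and Kcnn2 and Kcnk10 only through hepatocytes. Without that filter, 28 of 82 members were higher and 4 lower, and 9139 of 17832 genes were called. Nothing is therefore read from these shares or medians. Kcne3 (chromosome 7, 100176502 to 100184869, plus strand), the auxiliary subunit that holds the Kcnq1 channel open in secretory epithelia, stood at 19.0 and 55.3 CPM in EpCAM-positive cells, 4.19 and 2.30 for b-gal-, 0.984 and 0.322 for b-gal+ and 0.148 and 0.0798 for hepatocytes. It had the highest mean level per length in EpCAM-positive cells, which replicate 2 carried: Kcne3 took 12.0% and 25.4% of the family there and Kcnk6 17.4% and 10.8%. Kcne3 was higher than in hepatocytes by 5.75 ± 0.57 (adjusted p = 0.000193). Kcnn4 (chromosome 7, 24370263 to 24386690, plus strand), the intermediate-conductance calcium-activated channel of lymphocytes and secretory epithelia, stood at 32.6 and 39.2 CPM, against 5.14 and 7.96 for b-gal+, 10.8 and 3.57 for b-gal- and 0.295 and 0.160 for hepatocytes. Its difference to hepatocytes was 5.65 ± 0.50 (adjusted p = 0.000116). Kcnk1 (chromosome 8, 125995170 to 126030685, plus strand), a leak channel of epithelia, had 208 and 1291 reads among EpCAM-positive cells (6.32 and 48.3 CPM), 0 for hepatocytes, 0 and 1 for b-gal+ and 4 and 5 for b-gal-. Kcnma1, the large-conductance calcium-activated channel (chromosome 14, 23289431 to 24014491, minus strand), had 158 and 776 reads (4.80 and 29.0 CPM) and at most 2 reads in any other library. Kcnab1 stood at 4.47 and 18.6 CPM and below 1 in all other groups.

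**Figure D5:**
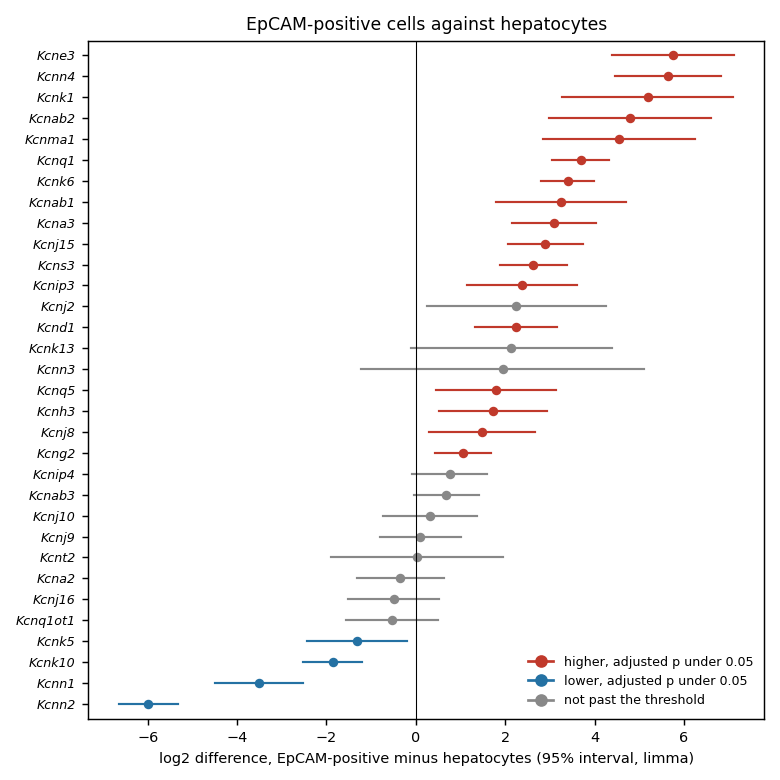
Points are log2 differences between EpCAM-positive cells and hepatocytes for 32 of the 35 members with a mean of at least 1 CPM in any group, and lines are 95% intervals from limma. Kcne3, Kcnn4 and Kcnk1 are the highest and Kcnn2, at -5.99, the lowest.

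Kcnk5 was lower in EpCAM-positive cells than in hepatocytes by a log2 difference of -1.32 (adjusted p = 0.0459), but under the deposited scaling the difference turned to 0.04 (adjusted p = 0.938). That call was also lost with edgeR (0.0641) and when any 1 library other than EpCAM-positive replicate 2 was left out, with adjusted p up to 0.176. Without EpCAM-positive replicate 1 the difference was -0.61 (0.162). Kcnn2 (-5.99), Kcnn1 (-3.51) and Kcnk10 (-1.87) were also lower, of which Kcnk10 did not pass with edgeR (0.0623) or DESeq2 (0.177). The scaling of the deposited values moved the median of all genes in this comparison from 0.15 to 1.32 and the share of higher among called genes from 53.5% to 84.9%. For b-gal- cells against hepatocytes these moved from 0.17 to 1.13 and from 53% to 79.7%, and for b-gal+ cells against hepatocytes from 0.10 to 0.87 and from 49.9% to 76.7%. Differences from hepatocytes are therefore relative to the TMM scaling.

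The EpCAM-positive libraries differed most from each other: of 29 members of at least 1 CPM there, 13 differed by more than 3-fold, against 4 of 23 for b-gal-, 1 of 19 for b-gal+ and 1 of 14 for hepatocytes. Kcnk1, Kcnma1 and Kcnab1 were higher in replicate 2, which also held more cholangiocyte (6405 against 2039 CPM) and hepatocyte markers (4970 against 707). Kcnk13 (10.0 and 0.823 CPM), Kcnab2 (53.9 and 13.2) and Kcnj2 (14.3 and 2.36) were higher in replicate 1, which held more Kupffer cell (918 against 196) and B or plasma cell markers (4097 against 1605). The part of these cells in the levels was not tested. Other members over 1 CPM with their highest mean in EpCAM-positive cells were low: Kcnd1 at 2.61 and 4.19 CPM, its modifiers Kcnip3 (5.59 and 1.57) and Kcnip4 (1.03 and 1.94), and the voltage-gated subunits Kcnq5 (3.37 and 0.636) and Kcnh3 (0.425 and 2.43). Kcnd1, Kcnip3, Kcnq5 and Kcnh3 were higher than in hepatocytes (adjusted p = 0.00213 to 0.0286). Without hepatocyte replicate 1, Kcnip3 (0.0526), Kcnq5 (0.154) and Kcnh3 (0.0905) did not pass, and without hepatocyte replicate 2, Kcnq5 (0.0647) and Kcnh3 (0.0866). Without EpCAM-positive replicate 1 the difference of Kcnq5 moved from 1.79 to 0.87 (0.0511). Kcnab3, another β subunit, was the most even member of the coding genes named here, at 1.83 to 2.76 CPM in the 6 sorted libraries and 0.812 and 1.44 for hepatocytes.

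Between b-gal- and EpCAM-positive cells, 4 of 43 members were higher in b-gal- cells (9.3%, against 5.63% of all genes) and 7 lower (16.3%, against 6.57%), 25.6% in either direction against 12.2%, with a median of -0.13 against 0.07. The higher ones were Kcna2 (3.02, adjusted p = 0.0179), Kcnj10 (2.78, 0.0188), Kcnj16 (2.76, 0.0184) and Kcnk6 (1.07, 0.0393). Kupffer cell markers were on the same side (2787 and 1943 against 918 and 196 CPM), and their part in these differences was not tested. The difference of Kcna2 is therefore not read as independent of how Kcna2 was chosen. Among the lower were Kcnk1 (-4.71), Kcnma1 (-4.47), Kcnk5 (-3.69), Kcnab1 (-3.52), Kcne3 (-3.19) and Kcnn4 (-2.42), with adjusted p = 0.0177 to 0.0292. These calls depended on the libraries in the fit. In limma, 0 were made when b-gal- replicate 1 was left out (16 members at an unadjusted p under 0.05), when b-gal- replicate 2 was (14), when hepatocyte replicate 2 was (21) or with only the 4 libraries of both groups (18). Leaving out hepatocyte replicate 1 gave 4 calls and EpCAM-positive replicate 1 gave 18. Over all genes these settings made 2, 0, 0 and 0 calls, against 1757 with all libraries, so calls were lost over all genes and not over the channels alone. On all libraries edgeR made 11 calls and DESeq2 16. Without the low-count filter, limma called 3 of 82 members higher and 9 lower, and 1443 of 17832 genes in all. Kcnk1 and Kcnma1 passed that filter only through EpCAM-positive cells, and Kcna2, which chose the family, is among the higher members. Nothing is therefore read from the shares of higher and lower members or from the median.

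Genes that work with potassium channels were taken from lists of channel-associated proteins, other potassium-permeable channels, the sodium-potassium pump, which builds the potassium gradient, and potassium-coupled chloride cotransporters. Of 37 such genes, 26 were tested. Against b-gal- cells, b-gal+ cells had 4 higher and 3 lower (10.4% and 13% of all genes were), against hepatocytes 11 and 5 (29.5% and 29.6%) and against EpCAM-positive cells 4 and 6 (14.7% and 17.9%). For b-gal- cells the numbers were 11 and 6 against hepatocytes (33.5% and 29.7%) and 1 and 4 against EpCAM-positive cells (5.63% and 6.57%), and for EpCAM-positive cells against hepatocytes 11 and 5 (33.5% and 29.1%). The β subunits of the pump differed by group. Atp1b1 stood at 126 and 495 CPM in EpCAM-positive cells and 159 and 209 for hepatocytes, against 1.48 to 6.46 in the F4/80high libraries, and was lower in b-gal+ cells than in hepatocytes by -6.51 (adjusted p = 0.00013). Atp1b3 stood at 300 and 546 CPM in b-gal+ cells, 243 and 205 for b-gal-, 135 and 93.8 for EpCAM-positive cells and 42.3 and 53.9 for hepatocytes, higher in b-gal+ cells than in hepatocytes by 3.07 (0.000205). The pump regulator Fxyd1 was at 328 and 327 CPM in hepatocytes and at most 20.1 elsewhere, whereas Fxyd5 was at 72.4 to 210 CPM in the sorted groups and 4.43 and 3.75 for hepatocytes.

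Among the cotransporters, Slc12a5, known from neurons, stood at 63.8 and 65.3 CPM in b-gal- cells, 26.6 and 21.8 for EpCAM-positive cells, 11.6 and 14.2 for b-gal+ and 4.80 and 5.99 for hepatocytes. It fell by 2.28 for b-gal+ against b-gal- cells (adjusted p = 0.00106), while Slc12a7 and Slc12a2 were 2.95-fold and 2.54-fold higher there (0.0346 and 0.0449). Neither Slc12a7 (up to 0.17) nor Slc12a2 (up to 0.202) passed when any 1 of these 4 libraries was left out, or with the deposited scaling (0.0592 and 0.0699). The potassium-permeable cation channel Hcn3 (11.2 and 30.6 CPM) and Tmem38b, a cation channel of the endoplasmic reticulum (172 and 150 CPM), were higher in hepatocytes than in each other group. Tmem38b stood at 6.31 to 26.7 CPM in the other libraries, and Hcn3 at most at 1.83.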

How the data were processed

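RNA of 8 libraries was sequenced. Reads were counted with HTSeq on GRCm38.p4 (mm10), per the submitters' processing notes; for aligner, annotation, strand setting and versions, nothing is given in the sources used here. Hepatocyte replicate 1 was deposited as raw counts per symbol. The other 7 deposited files hold another unit: counts that the authors multiplied by 1 factor per library, 1.08 to 1.54. Dividing by the smallest step gave whole reads for 100% of values within 0.01. In each file 14 rows with a date for a symbol, 0.0514% to 0.182% of reads, were left out.

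Reads were scaled with TMM (edgeR 4.0.16) to CPM. limma 3.58.1 with a trend tested log2(CPM + 0.5) of 14404 genes passing the low-count filter, in a two-sided test over 1 fit of the 8 libraries, which leaves 4 residual degrees of freedom, and was checked on simulated data. For genes close to 0 reads the pseudocount sets part of the log2 difference. Errors are SE of the fit with n = 2 libraries per group. The labels do not say whether libraries of 1 group are from separate mice, so p-values measure only the spread between these libraries. Floors reflect counting error alone: without molecular identifiers, reads are not independent molecules. Positions and exon lengths are from GENCODE M21, in which all 97 symbols matched, and upstream windows from RefSeq, which held 71 of the 97.

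The members, lists and tests were chosen with earlier results of these data known. Named are Kcna2 and Kcng2, members with a mean of at least 1 CPM in any group, at most 6 called members in each direction per comparison without overlap, and called partner genes of at least 10 CPM, at most 3 in each direction per comparison. The differences given for Kcnj2, Kcnk6 and Kcnk13 that did not pass were added after their values were seen. Alternatives were other pseudocounts, scalings and filters, edgeR's quasi-likelihood test, DESeq2 1.42.0, a replicate block, only the groups compared, and each library left out. Of the marker lists, T or NK cell markers summed to at most 19.7 CPM and dendritic cell markers to at most 847. Neutrophil markers summed to at most 325, stellate cell, fibroblast or pericyte markers to at most 1036 and mesothelial markers to at most 31.8. Nerve or Schwann cell markers summed to 21.1 and 25.0 CPM in b-gal+ cells, mostly Syp (19.3 and 22.7), and 5.23 to 6.49 elsewhere. Erythroid markers summed to 114 and 45.7 CPM in hepatocytes, all of it Alas2, and at most 1.30 elsewhere. Hba-a1 and Hbb-bs were at 0. Some members and partner genes that the rule names are not reported here, and they stay within the counts.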

Additional observations from a re-analysis of the deposited data

How the results depend on the processing

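With 1 library left out, the number of members called ranged from 5 to 14 for b-gal+ against b-gal- cells (10 with all libraries), from 15 to 19 for b-gal+ cells against hepatocytes (18), from 11 to 26 for b-gal+ against EpCAM-positive cells (19), from 21 to 29 for b-gal- cells against hepatocytes (25), from 0 to 18 for b-gal- against EpCAM-positive cells (11) and from 20 to 32 for EpCAM-positive cells against hepatocytes (26). With only the groups compared in the fit, b-gal- against EpCAM-positive cells gave 0 called members in limma, with 18 at an unadjusted p under 0.05. All other settings that kept every library stayed within 1.5 times the number called. With the scaling of the deposited values, Kcnk5 in EpCAM-positive cells against hepatocytes turned from -1.32 to 0.044. That scaling also moved the share of higher among called genes from 44.4% to 32.5% for b-gal+ against b-gal-, from 45.1% to 25.6% for b-gal+ against EpCAM-positive and from 46.2% to 25.5% for b-gal- against EpCAM-positive cells. Replicate numbers come from the labels, which do not say that they pair libraries; deviations of same-numbered libraries correlated at 0.177 to 0.494 across genes. With the replicate block, 11, 20, 21, 25, 12 and 28 members were called in the comparisons in the order above. Kcnk13, at 2.59 between b-gal+ and b-gal- cells, passed with the block (adjusted p = 0.0331) and with DESeq2 (0.0389). With 3 reads as the floor, a count of 0 reads leaves any level under 0.122 to 0.177 CPM before TMM scaling possible.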

Other observations

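Kcnn3, a small-conductance calcium-activated channel subunit (chromosome 3, 89520164 to 89675132, GRCm38, plus strand), differed with the replicate number within each of the 3 sorted groups and was at or near 0 reads in hepatocytes. Its level was 3.53 CPM for b-gal+ replicate 1 and 0.362 for replicate 2, then 5.91 and 0.489 for b-gal-, 6.05 and 0.150 for EpCAM-positive cells and 0.0738 and 0 for hepatocytes. Replicate 1 was 9.76, 12.1 and 40.4 times replicate 2 in the sorted groups, and no comparison called it. What the replicate number stands for is not given in the labels.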
